A study of Mus musculus with 13 samples.

Results

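Sycp3, Smc1b, Hormad1, Ddx4, Mnd1, Tdrd12, Mael and Dazl are 8 mouse genes of meiosis and the germline, followed here across 7 cell lines on 13 expression arrays. Rows of the deposited table were taken where the array annotation gives 1 of these symbols alone, and each gene had a single such row, so 8 of 14807 distinct gene symbols were described. The lines were 4 induced pluripotent stem (iPS) clones, numbered 1, 2, 5 and 6, the mouse embryonic fibroblasts (MEF) they were made from, an embryo-derived embryonic stem (ES) line named MPSVII, and the control ES line B6 Blu. Every line had 2 arrays except B6 Blu ES, which had 1. The arrays were of the Affymetrix Mouse Exon 1.0 ST type and received total RNA that had been amplified from small amounts.

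By the labels, the clones carried a lentivirus abbreviated OSK, and each clone was a single picked colony grown up on a layer of MEF feeder cells. Such clones begin as body cells and become pluripotent, like ES cells, after the addition of a few transcription factors. The labels give the strain C57Bl/6 for the clones, MEF and MPSVII ES, and C57BL/6NTac for B6 Blu ES. Titles and design text place clones, MEF and MPSVII ES in the disease model mucopolysaccharidosis type VII, the loss of the enzyme encoded by Gusb, while the source and growth fields name wildtype embryos for clones and MEF. Gusb signal lay between 3.47 and 4.25 on the clone arrays, at 5.07 and 3.98 in MEF, at 3.76 and 3.72 in MPSVII ES and at 4.50 in B6 Blu ES. This signal does not check the labels, since a gene disabled by a small mutation can still be transcribed. No label states the sex of a line or whether its arrays came from separate cultures, so p-values measure the spread between these arrays, which may be technical.

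These genes serve the germline, where meiosis reduces the chromosome number and small RNAs hold transposons silent. In body cells many of them are kept off, often by DNA methylation of their promoters. Mouse ES cells hold many of the same genes down with a repressor complex that contains Mga, Max, L3mbtl2, Pcgf6 and E2f6, in which Mga with Max recognises the E-box and E2f6 the E2F site. ES cells nevertheless transcribe some germline genes at low to moderate levels.

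The promoters of the 4 members that hold both sets of letters are shown, with that of Dazl, which holds neither. Each line gives the 250 bases before the transcription start from RefSeq (GRCm38.p6), 5′ to 3′ on the strand of the gene, with the E-box CACGTG and the E2F letters TCCCGC or GCGGGA in capitals. The windows are chr10:88459337-88459586 on the plus strand for Sycp3, chr3:95559427-95559676 on the plus strand for Hormad1, chr13:112652311-112652560 on the minus strand for Ddx4, chr1:166238745-166238994 on the minus strand for Mael and chr17:50293621-50293870 on the minus strand for Dazl.
Sycp3 promoter: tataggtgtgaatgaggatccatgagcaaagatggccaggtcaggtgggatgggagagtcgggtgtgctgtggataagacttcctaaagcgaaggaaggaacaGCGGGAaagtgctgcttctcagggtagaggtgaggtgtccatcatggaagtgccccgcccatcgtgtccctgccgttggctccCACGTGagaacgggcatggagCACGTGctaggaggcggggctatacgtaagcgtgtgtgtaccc
Hormad1 promoter: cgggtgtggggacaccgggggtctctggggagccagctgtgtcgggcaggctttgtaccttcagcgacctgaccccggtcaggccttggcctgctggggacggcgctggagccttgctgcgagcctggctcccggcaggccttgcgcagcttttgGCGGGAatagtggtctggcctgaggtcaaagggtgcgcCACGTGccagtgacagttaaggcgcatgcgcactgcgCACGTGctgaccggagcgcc
Ddx4 promoter: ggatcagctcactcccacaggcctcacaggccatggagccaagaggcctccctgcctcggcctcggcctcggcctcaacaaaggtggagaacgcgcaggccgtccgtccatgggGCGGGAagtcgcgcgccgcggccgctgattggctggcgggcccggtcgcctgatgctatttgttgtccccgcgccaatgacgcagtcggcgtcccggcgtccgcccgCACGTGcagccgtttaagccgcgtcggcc
Mael promoter: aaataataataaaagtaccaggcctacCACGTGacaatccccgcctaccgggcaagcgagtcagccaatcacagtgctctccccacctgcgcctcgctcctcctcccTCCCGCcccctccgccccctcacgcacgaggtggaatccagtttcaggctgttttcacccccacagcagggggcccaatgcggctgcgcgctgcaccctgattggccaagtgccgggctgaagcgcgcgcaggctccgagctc
Dazl promoter: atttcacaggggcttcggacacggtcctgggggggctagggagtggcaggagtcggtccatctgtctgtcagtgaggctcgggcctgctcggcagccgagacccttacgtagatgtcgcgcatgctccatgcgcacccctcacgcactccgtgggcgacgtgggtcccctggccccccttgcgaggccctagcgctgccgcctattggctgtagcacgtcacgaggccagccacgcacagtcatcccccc

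All 8 genes had a RefSeq promoter, and the first listed was used for Hormad1 and Tdrd12, which have 2. On either strand, CACGTG stood in 4 of 8 windows against 6.05% of 27025 mouse promoters of the same length. It began 64 and 43 bases before the start in Sycp3, 57 and 20 in Hormad1, 29 in Ddx4 and 223 in Mael. The E2F letters stood in 5 of 8 windows, those of the same 4 genes and of Smc1b, against 16.9% of all promoters, and the 2 motifs shared no base in any of them. The windows of Mnd1, Tdrd12 and Dazl held neither. CpG pairs numbered 31 in Ddx4, 25 in Smc1b, 20 in Dazl, 19 in Hormad1, 18 in Mael, 12 in Sycp3, 8 in Mnd1 and 6 in Tdrd12, with a median of 6 over all promoters. Both motifs contain a CpG pair, and their shares among promoters of like CpG count were not taken. These counts describe letters and are no measurement of binding or methylation.

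Values below are log2 signal, on which a difference of 1 is a doubling. A row is called when its limma p, adjusted by Benjamini and Hochberg over all 16661 tested rows, lies under 0.05, and ± gives the standard error of limma. Levels of different genes are not set against each other, because each rests on its own probes. The interquartile range over rows was narrowest on the arrays of clone 2, at 1.88 and 1.70, against 1.95 to 2.83 on the other arrays. The mean of 11 pluripotency markers stood at 3.62 and 3.63 in MEF, at 6.99 and 7.15 in clone 2, from 7.68 to 8.03 in clones 1, 5 and 6, at 8.13 and 8.21 in MPSVII ES and at 7.46 in B6 Blu ES. The mean of 12 fibroblast markers lay at 7.81 and 8.33 in MEF, between 4.43 and 5.24 in the clones, at 4.60 and 4.63 in MPSVII ES and at 5.70 in B6 Blu ES. MEF also gave the 9 macrophage markers a mean of 8.46 and 8.99, against 3.83 to 4.27 elsewhere. The mean of 8 markers of Sertoli and granulosa cells, the somatic cells of the gonad, lay between 3.55 and 3.84 on every array.

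**Figure D1:**
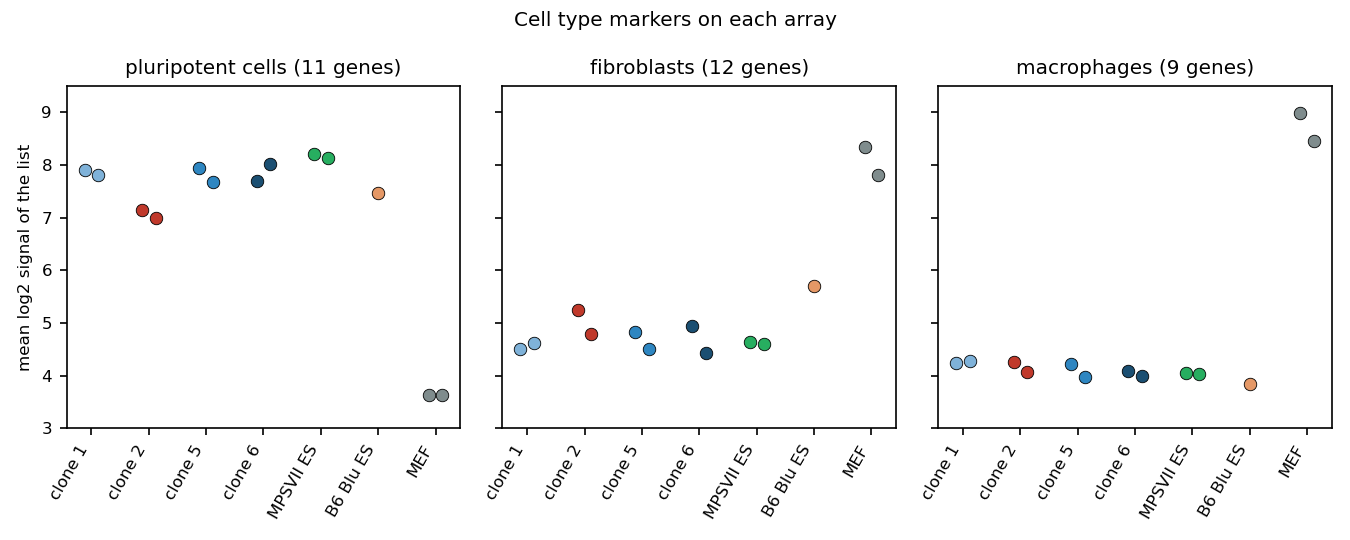
Mean log2 signal of pluripotency, fibroblast and macrophage markers on each array (points), by line. MEF is low for the first list and high for the other lists, the 2 arrays of clone 2 are lowest of the pluripotent lines for pluripotency markers, and B6 Blu ES is highest of them for fibroblast markers, at 5.70.

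Among the chromosome axis genes, Sycp3, a protein of the lateral element of the synaptonemal complex, separated the lines into high and low. It stood at 5.91 and 6.24 in clone 1, at 6.13 and 5.99 in clone 5, at 6.52 and 6.77 in clone 6 and at 7.11 and 6.27 in MPSVII ES. In clone 2 it stood at 3.13 and 3.69, below MEF at 4.27 and 4.44, and B6 Blu ES was level with MEF at 4.44. Of the 6 neighbouring pairs in the order of line means, only MEF and clone 2 differed past the threshold.

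Hormad1, which marks chromosome axes that have not yet paired, was highest in clone 2. Its signal there was 10.57 and 9.10, against 7.69 and 8.05 in clone 1, 8.83 and 8.21 in clone 5, 7.84 and 8.35 in clone 6 and 9.36 and 8.77 in MPSVII ES. B6 Blu ES stood at 5.72 and the MEF arrays lay far apart, at 5.49 and 3.05. No neighbouring pair of lines in its order passed the test. Smc1b, the meiotic form of a cohesin subunit that holds sister chromatids together, was nearly level in all clones and MPSVII ES. Its signal was 5.70 and 6.33 in clone 1, 6.24 and 6.67 in clone 2, 6.87 and 6.65 in clone 5, 6.20 and 6.81 in clone 6 and 6.60 and 6.17 in MPSVII ES. B6 Blu ES at 3.49 lay near MEF at 3.10 and 3.28. The step from clone 1 down to B6 Blu ES was the only neighbouring pair that differed (2.52 ± 0.35, adjusted p = 0.0162 by limma).

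Mnd1, which with its partner Psmc3ip helps the recombinase Dmc1 exchange DNA strands, was lower in clone 2 than in the other clones, with arrays far apart. It read 2.58 and 4.90 there, against 6.79 and 7.31 in clone 1, 6.43 and 5.90 in clone 5, 6.20 and 7.05 in clone 6 and 6.83 and 5.61 in MPSVII ES. B6 Blu ES at 6.15 was within the range of those clones, and MEF read 3.71 and 2.91. No neighbouring pair of lines differed past the threshold.

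**Figure D2:**
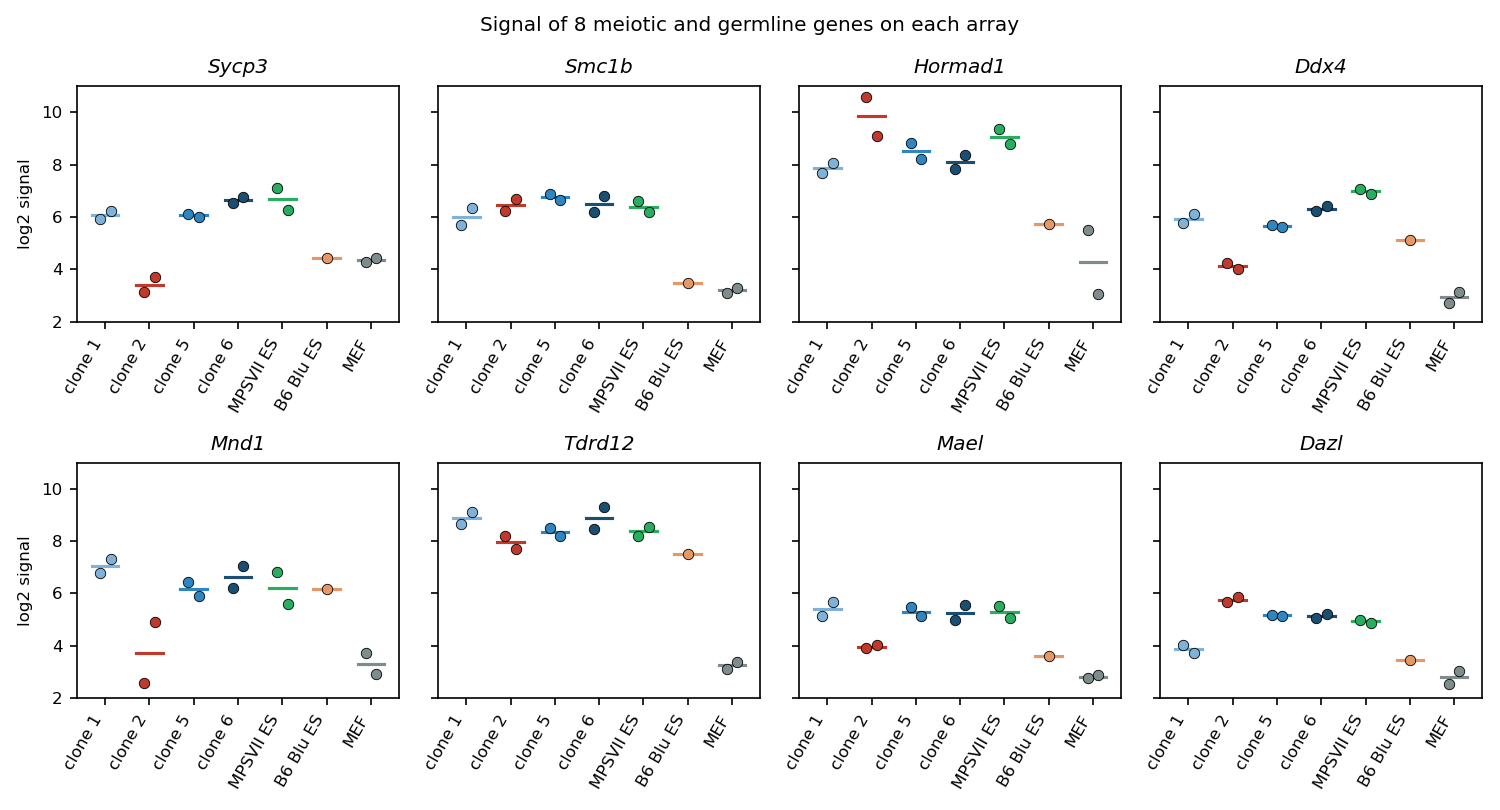
Log2 signal of the 8 genes on every array, with 1 panel per gene, 1 column per line, points for arrays and bars for line means. Clone 2 is low for Sycp3, Ddx4, Mnd1 and Mael and high for Hormad1 and Dazl, B6 Blu ES lies at 3.49 for Smc1b near MEF, and MEF is lowest for 7 genes.

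Of the nuage genes, whose proteins gather in the germ granules where small piRNAs are made, Ddx4 is an RNA helicase and the mouse counterpart of fly vasa. Its signal was 5.78 and 6.10 in clone 1, 4.25 and 4.01 in clone 2, 5.68 and 5.62 in clone 5, 6.22 and 6.40 in clone 6, and 7.07 and 6.87 in MPSVII ES. B6 Blu ES read 5.10, and MEF 2.72 and 3.13. Both MPSVII ES arrays lay above every clone array, and both clone 2 arrays below the other clones. Of the neighbouring pairs for Ddx4, only clone 2 and MEF differed (1.20 ± 0.21, adjusted p = 0.00108, limma).

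Tdrd12, a tudor domain protein of piRNA production, stood far above MEF in every pluripotent line. It read 8.65 and 9.10 in clone 1, 8.20 and 7.70 in clone 2, 8.50 and 8.20 in clone 5, 8.45 and 9.30 in clone 6, 8.20 and 8.54 in MPSVII ES, and 7.52 in B6 Blu ES, with MEF at 3.13 and 3.39. Only the step from B6 Blu ES to MEF differed among its neighbouring pairs. Mael, a nuage protein needed to silence transposons, read 5.15 and 5.67 in clone 1, 3.91 and 4.03 in clone 2, 5.47 and 5.13 in clone 5, 5.00 and 5.54 in clone 6 and 5.53 and 5.08 in MPSVII ES. Clone 2 and B6 Blu ES, at 3.62, lay between those lines and MEF, at 2.76 and 2.89. Of the neighbouring pairs for Mael, only clone 6 and clone 2 differed (1.30 ± 0.26, adjusted p = 0.0204, limma).

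Dazl, an RNA-binding protein that promotes translation in germ cells, ordered the clones differently. It read 5.67 and 5.85 in clone 2, 5.19 and 5.14 in clone 5, 5.07 and 5.23 in clone 6 and 5.00 and 4.85 in MPSVII ES, but 4.02 and 3.72 in clone 1. B6 Blu ES stood at 3.45, and MEF at 2.54 and 3.04. Clone 2 was thus highest and clone 1 lowest of the clones, with no overlap on either side. The step from clone 2 to clone 5 did not pass the threshold (0.60 ± 0.21, adjusted p = 0.141, limma). Of the neighbouring pairs for Dazl, only MPSVII ES and clone 1 differed (adjusted p = 0.0456, limma).

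Against MEF, all 8 genes were higher in the mean of the 4 clones, where 7.78% of all tested rows were called higher. The genes were chosen with earlier results of these data known. This count and those of single lines below therefore test nothing about germline genes as a class. The differences ran from 1.19 ± 0.23 for Sycp3 (2.28-fold, adjusted p = 0.00176) to 5.26 ± 0.24 for Tdrd12 (38.2-fold, adjusted p = 8.1e-08, limma). Hormad1 was 4.31 ± 0.54 higher, Smc1b 3.24 ± 0.23, Mnd1 2.59 ± 0.53, Ddx4 2.58 ± 0.17, Dazl 2.20 ± 0.17 and Mael 2.16 ± 0.21. Arrays did not overlap for 6 of the 8 genes, against 7.63% of rows whose clone arrays all lay above MEF. The exceptions were Sycp3, with both clone 2 arrays below MEF, and Mnd1, with the clone 2 arrays on either side of MEF. In these bulk samples, fewer cells that transcribe a gene and less RNA per cell cannot be told apart. With each line mean taken as 1 sample, 3 of the 8 calls held, and those of Sycp3 (adjusted p = 0.600), Mnd1 (0.238), Ddx4 (0.0898), Dazl (0.0867) and Mael (0.0588) were lost in limma. Hormad1 was 5.53 without MEF replicate 1 and 3.09 without MEF replicate 2, and without clone 2 Sycp3 was 1.90 and Mnd1 3.30. The part of the macrophage and fibroblast RNA of MEF in these differences was not tested.

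MPSVII ES gave the same count of 8 higher against MEF, where 6.70% of rows were called higher. Ddx4 was 4.04 ± 0.21 above MEF there (16.5-fold) and Sycp3 2.33 ± 0.29 (5.03-fold, adjusted p = 0.00014, limma). Clones 1, 5 and 6 each had 8 genes higher than MEF, where 7.99%, 6.91% and 6.85% of rows were called higher. The Mnd1 call was lost in MPSVII ES without MEF replicate 2 (2.51) or MPSVII ES replicate 1 (2.30), and in clone 5 without MEF replicate 2 (2.46). The Hormad1 differences from MEF shift by the same amount as in the clone mean when either MEF array is omitted. Clone 2 had 6 higher (4.78% of rows) and 1 lower (28.0% of rows). The lower gene was Sycp3 at -0.95 ± 0.29 (adjusted p = 0.027), a call that was lost at -0.73 with quantile normalization, -0.65 with median centring and -0.15 with an intensity-dependent normalization, and also without clone 2 replicate 1 or either MEF array. Mnd1 in clone 2 was 0.44 ± 0.67 above MEF (adjusted p = 0.678, limma), with a 95% interval that reaches both sides of 0 and MEF arrays that overlap with it.

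**Figure D3:**
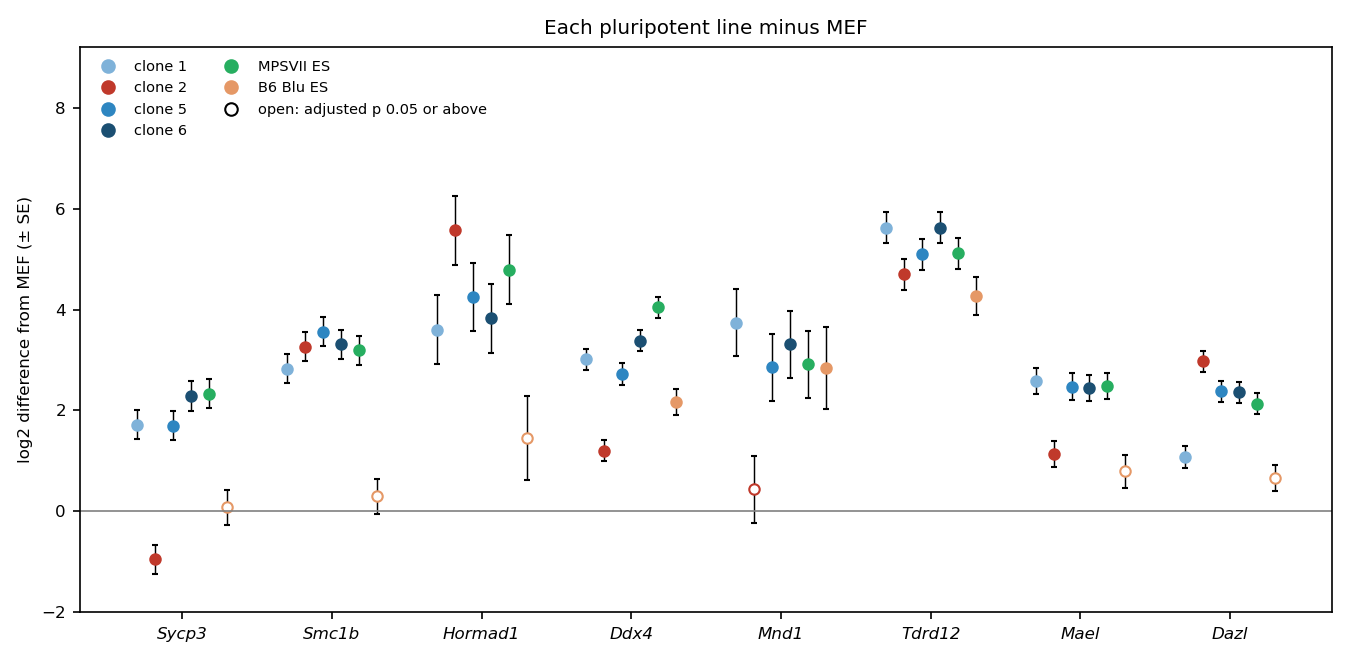
Log2 difference of each pluripotent line from MEF for the 8 genes, with bars of 1 standard error from limma; filled points have an adjusted p under 0.05. Tdrd12 is high in all 6 lines, while clone 2 drops to -0.95 for Sycp3 and B6 Blu ES lies near 0 for Sycp3 and Smc1b.

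Some other axis and recombination genes were also higher in the clones than in MEF, but no piRNA pathway gene outside the members was called higher. The share of all rows was 7.78% higher and 27% lower. Of 10 measured axis, cohesin and synapsis genes, which include Sycp3, Hormad1 and Smc1b, 8 were higher and 0 lower, with a median of 1.90 against -0.09 over all rows. Called genes outside the 8 members were 4930447C04Rik (Six6os1, a synaptonemal complex protein) at 2.94 ± 0.31, Sgo2a, a protector of cohesin, at 2.42 ± 0.17, Syce2, of the central element of the complex, at 2.26 ± 0.18, Sycp1, its transverse filament, at 1.54 ± 0.36, and Stag3. Of 13 recombination genes, which include Mnd1, 5 were higher and 0 lower (median 0.14). Among them were Dmc1 at 3.01 ± 0.21 and Psmc3ip at 1.11 ± 0.20. Of 14 piRNA pathway genes only the members Ddx4, Mael and Tdrd12 were higher, and Tdrd7 (-1.85 ± 0.22) and Tdrkh (-0.68 ± 0.15), both tudor domain genes, were lower (median 0.18).

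Read against the same shares of 7.78% higher and 27% lower, the other lists varied. Of 16 genes of germ cell specification and RNA binding, which include Dazl, 8 were higher in the clones than in MEF and 0 lower. Outside the members, Dppa3, a maternal factor of the early embryo, was at 2.27 ± 0.51. Elavl2, an RNA-binding protein, was at 2.05 ± 0.24 and Stra8, which starts the meiotic programme, at 1.18 ± 0.19. Among late germ cell genes, 1 of 16 haploid spermatid genes was higher (Odf2, 0.59 ± 0.18) and 2 lower. The lower genes were Crem (-1.04 ± 0.18) and Spaca1 (-0.54 ± 0.16). Of 10 oocyte genes 1 was higher (Zp3, a protein of the egg coat, 1.17 ± 0.28). Of 16 genes that repress germline genes, 6 were higher and 3 lower in the clones. The difference was 3.14 ± 0.28 for the DNA methyltransferase cofactor Dnmt3l and 2.60 ± 0.22 for the methyltransferase Dnmt3b. For the methylation cofactor Uhrf1 it was 2.19 ± 0.24. Of the repressor complex named above, Pcgf6 (1.72 ± 0.19), Mga (1.10 ± 0.21) and L3mbtl2 (0.78 ± 0.23) were higher. E2f6 (-1.98 ± 0.17) and Max (-1.11 ± 0.23) were lower. The third lower gene of this list, Dnmt3a (-0.62 ± 0.17), lost its call under the 3 other scalings, and its sign with quantile normalization (0.05).

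The ES lines differed from each other in these genes. MPSVII ES was higher than B6 Blu ES for 3 of 8 genes, where 0.132% of rows were called higher: Smc1b by 2.89 ± 0.35 (7.43-fold, adjusted p = 0.0134), Sycp3 by 2.25 ± 0.35 (4.76-fold, adjusted p = 0.0364) and Ddx4 by 1.87 ± 0.26 (3.65-fold, adjusted p = 0.0222, limma). Both MPSVII ES arrays lay above the B6 Blu ES array for 7 genes, as they did for 40.1% of all rows. Of these, 4 missed the threshold: Hormad1 at 3.34 ± 0.83 (adjusted p = 0.173), Mael at 1.69 ± 0.32 (adjusted p = 0.0768), Dazl at 1.48 ± 0.26 (adjusted p = 0.0656) and Tdrd12 at 0.85 ± 0.37 (adjusted p = 0.510, limma). For Mnd1 the difference was 0.07 ± 0.81, with an interval from -1.73 to 1.87. The single B6 Blu ES array has no spread of its own, and that of the other lines stands in for it. Mael was called with quantile, median and intensity-dependent scaling and without the dimmest rows, and Dazl with quantile scaling, without the dimmest rows and without either MEF array. Sycp3 lost its call with intensity-dependent scaling (2.01, adjusted p = 0.0652, limma). Without MPSVII ES replicate 1, 0 of 8 genes were called. Ddx4 also lost its call without MPSVII ES replicate 2, and Sycp3 in 9 of the 12 fits that omitted an array.

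B6 Blu ES was higher than MEF for 3 of 8 genes, Tdrd12 by 4.27 ± 0.37, Mnd1 by 2.84 ± 0.81 and Ddx4 by 2.17 ± 0.26, where 3.30% of rows were called higher. The Mnd1 call was lost without either MEF array. Calls were gained by Hormad1 without MEF replicate 1 (2.68) and with quantile scaling (2.06), by Dazl without MEF replicate 2 (0.91), and by Mael with median (1.00) and intensity-dependent scaling (1.02). For Sycp3 the difference from MEF was 0.08 ± 0.35 (interval -0.70 to 0.86) and for Smc1b 0.30 ± 0.35 (interval -0.48 to 1.08). Other axis and recombination genes were called in B6 Blu ES against MEF, with 4930447C04Rik at 2.70 ± 0.48, Sgo2a at 1.98 ± 0.26, Syce2 at 1.88 ± 0.28 and Dmc1 at 2.05 ± 0.33. Beside these values, 3 of 12 fibroblast markers, Acta2 (-4.78 ± 0.49), Thy1 (-2.67 ± 0.38) and Prrx1 (-2.18 ± 0.32), were lower in MPSVII ES than on the B6 Blu ES array (0.072% of rows were called lower), and 0 of 11 pluripotency markers were called by limma. The part of that marker signal in the differences between ES lines was not tested.

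Against MPSVII ES, the mean of the clones was lower for 2 of 8 genes, where 0.72% of rows were called lower, and higher for 0. Ddx4 was lower by -1.46 ± 0.17 (adjusted p = 0.00446), with all 8 clone arrays below both MPSVII ES arrays, as was so for 5.28% of rows. Without MPSVII ES replicate 1 it was -1.36 and not called (adjusted p = 0.170, limma). Sycp3 was lower by -1.14 ± 0.23 (adjusted p = 0.0466, limma), with overlapping arrays. That Sycp3 call held in 1 of 12 fits that omitted an array and in 2 of 9 other settings, and without clone 2 the difference was -0.43. The intervals of the other differences were -0.45 to 0.55 for Smc1b, -0.31 to 0.43 for Dazl, -0.39 to 0.68 for Tdrd12, -0.77 to 0.14 for Mael, -1.49 to 0.84 for Mnd1 and -1.67 to 0.71 for Hormad1. Among the other listed germline genes, the recombination genes Tex15 (-1.29 ± 0.19) and Tex11 (-0.89 ± 0.17) were lower in the clones. Elavl2 was higher (1.33 ± 0.24, with 0.318% of rows called higher). Tex15 also differed among the clones (adjusted p = 0.00236, F test of limma). Its mean was 3.13 in clone 2, against 4.43 over all clones.

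The genes called against MPSVII ES were not the same in each clone. A gene called in some clones and not in others was not thereby shown to differ between them. For Ddx4 the step from clone 6 to clone 1 was 0.37 ± 0.21 (adjusted p = 0.722, limma). In clone 6, 0 of 8 genes were called (0.048% of rows; 8 rows in all). The 95% interval for Ddx4 in clone 6 was -1.12 to -0.20, and its unadjusted p was 0.00983. In clone 5 only Ddx4 was lower (-1.32 ± 0.21, adjusted p = 0.0157; 1.12% of rows), and in clone 1 Ddx4 (-1.03 ± 0.21, adjusted p = 0.0489) and Dazl (-1.06 ± 0.21, adjusted p = 0.0456; 0.324% of rows). When single arrays were omitted in turn, Ddx4 lost its call in clone 1 every time, Dazl in clone 1 in 10 of 12 fits, and Ddx4 in clone 5 without either array of clone 5 or of MPSVII ES. With the replicate block both clone 1 calls were lost, and with each of the 3 other scalings that of Dazl. The clone 1 call of Ddx4 was also lost with a trended and robust variance prior (adjusted p = 0.0638, limma). In clone 2, 3 genes were lower (5.30% of rows) and 1 higher (0.60% of rows). Sycp3 differed by -3.28 ± 0.29 (adjusted p = 0.000575), Ddx4 by -2.84 ± 0.21 (adjusted p = 0.000185), Mael by -1.34 ± 0.26 (adjusted p = 0.0195) and Dazl by 0.84 ± 0.21 (adjusted p = 0.0451, limma). Mnd1 in clone 2, at -2.48 ± 0.67, missed the threshold (adjusted p = 0.056, limma) and was called without the dimmest rows. Omitting either array of clone 2 or of MPSVII ES took the call from Mael in clone 2, and Dazl there lost it in 10 fits, with the replicate block and with intensity-dependent scaling.

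The clones also differed among themselves. The moderated F test of limma called 5 of 8 genes, where 9.01% of rows were called: Sycp3 (adjusted p = 0.00156), Ddx4 (adjusted p = 0.00203), Dazl (adjusted p = 0.00406), Mael (adjusted p = 0.0163) and Mnd1 (adjusted p = 0.0327). Smc1b (adjusted p = 0.401), Hormad1 (adjusted p = 0.252) and Tdrd12 (adjusted p = 0.168) were not called. With clone 2 left out, only Dazl was called. Omitting single arrays took the call from Mnd1 in 6 of 12 fits and from Mael without either clone 2 array. Mnd1 also lost it with the replicate block (adjusted p = 0.0530), quantile scaling (0.103) and intensity-dependent scaling (0.101, limma).

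Clone 2 against clones 1, 5 and 6 was lower for 4 of 8 genes (10.7% of rows) and higher for 1 (0.87% of rows). Mnd1 differed by -2.87 ± 0.54 (adjusted p = 0.0078), Sycp3 by -2.85 ± 0.24 (7.20-fold, adjusted p = 0.000242), Ddx4 by -1.84 ± 0.17 (3.57-fold, adjusted p = 0.000412) and Mael by -1.36 ± 0.21 (adjusted p = 0.00369). Dazl was higher by 1.03 ± 0.17 (2.05-fold, adjusted p = 0.0046, limma). For these 5 genes no array of clone 2 overlapped with the 6 of the other clones, where 15.7% of all rows lay wholly below and 5.22% wholly above. All 5 calls were kept under the 3 other scalings, between -2.45 and -2.81 for Sycp3, between -2.43 and -2.83 for Mnd1, between -1.49 and -1.80 for Ddx4, between -1.25 and -1.32 for Mael and between 1.07 and 1.49 for Dazl. Without clone 2 replicate 1 Mnd1 was -1.71 and not called (adjusted p = 0.0584), without clone 2 replicate 2 Mnd1 was -4.03, and Dazl was 0.94 and not called (adjusted p = 0.0567, limma). Over all rows, 571 were called without clone 2 replicate 2, against 1923.

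Among the other 3 genes, Hormad1 differed by 1.68 ± 0.56 in clone 2 without passing (adjusted p = 0.0824), though both arrays lay above the other clones, and it was called with quantile normalization (2.08), with the intensity-dependent one (2.30) and without the dimmest rows. Tdrd12 was -0.75 ± 0.25 (adjusted p = 0.0838), and Smc1b 0.03 ± 0.23 (adjusted p = 0.959, limma). Of the E-box genes shown above, Sycp3, Ddx4 and Mael were lower in clone 2 and Hormad1 was not called, while Mnd1, lower in clone 2, and Dazl, higher, had neither motif.

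**Figure D4:**
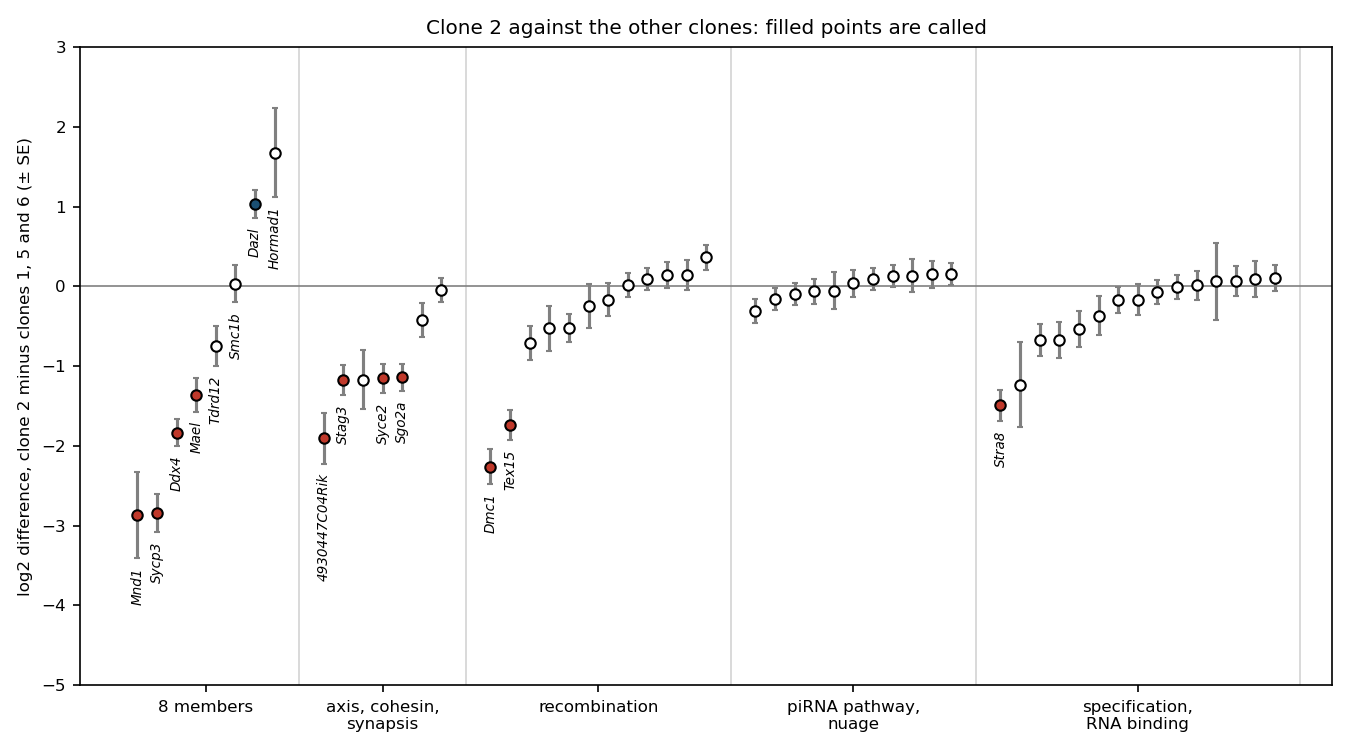
Log2 difference of clone 2 from clones 1, 5 and 6 for the 8 genes and for the other measured genes of 4 germline lists, with bars of 1 standard error; red points are called lower and blue points higher. Axis and recombination genes such as Dmc1 at -2.26 lie among the called lower genes, and 0 of the piRNA pathway genes outside the 8 are called.

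Other meiotic genes were also lower in clone 2 than in the other clones, where 10.7% of rows were called lower and 0.87% higher. In the axis, cohesin and synapsis list 5 of 10 were lower and 0 higher (median -1.15, against -0.06 over all rows), with 4930447C04Rik at -1.91 ± 0.32, Stag3 at -1.18 ± 0.19, Syce2 at -1.16 ± 0.19 and Sgo2a at -1.14 ± 0.17 beside Sycp3. In the recombination list 3 of 13 were lower, Mnd1, Dmc1 at -2.26 ± 0.22 (adjusted p = 0.000471) and Tex15 at -1.74 ± 0.19 (adjusted p = 0.000883, limma). Signal of Dmc1, the meiotic recombinase, was 4.62 and 3.91 in clone 2, while clones 1, 5 and 6 ranged from 6.01 to 7.19. In the specification list Stra8 was lower (-1.49 ± 0.19) and Dazl higher. In the piRNA list 2 of 14 were lower, Ddx4 and Mael, a share near that of all rows. With quantile normalization Syce2 and Sgo2a lost their calls, and with the intensity-dependent one Sgo2a did, while 4930447C04Rik, Stag3, Dmc1, Tex15 and Stra8 kept theirs.

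Genes that repress the germline programme and pluripotency markers moved with clone 2 as well, beside 10.7% of all rows lower and 0.87% higher. Of 16 repressors 6 were lower, Dnmt3b at -1.30 ± 0.23, the methylation cofactor Uhrf1 at -1.06 ± 0.25, the maintenance methyltransferase Dnmt1 at -0.93 ± 0.16 and the histone methyltransferase Setdb1 at -0.88 ± 0.23 among them. Of 11 pluripotency markers 5 were lower, from Dppa4 at -1.82 ± 0.31 and Utf1 at -1.68 ± 0.20 to Pou5f1 at -0.83 ± 0.20 and Sox2 at -0.75 ± 0.18. Of 12 fibroblast markers 2 were higher, Postn at 1.53 ± 0.37 and Acta2 at 1.18 ± 0.33. Scaling mattered here: with quantile and with intensity-dependent normalization 1 repressor was called lower (Dnmt3b) and 1 higher, and 1 pluripotency marker was called lower (Utf1). Over all rows, 7.5% of the calls in clone 2 were higher, against 39.8% with quantile and 43.6% with intensity-dependent normalization. The part of the narrower spread of the clone 2 arrays and of these markers in the 5 called genes was not tested beyond those scalings.

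Clones 1 and 6 differed from the rest in fewer of the 8 genes, and clone 5 in 0 (0.366% of rows called; unadjusted p under 0.05 for Sycp3 alone, at 0.0157). In clone 1 Dazl was lower than in the other clones by -1.49 ± 0.17 (2.81-fold, adjusted p = 0.0169; 0.06% of rows), and of the other listed germline genes only Dmc1 was called, higher by 1.30 ± 0.22 (0.522% of rows). The Dazl call was lost when either clone 1 array was left out. In clone 6 Sycp3 was higher by 1.46 ± 0.24 (adjusted p = 0.0179) and Ddx4 by 1.07 ± 0.17 (adjusted p = 0.0173, limma; 1.07% of rows). With them 4930447C04Rik (1.94 ± 0.32), Sycp1 (1.88 ± 0.37), Stag3 (1.57 ± 0.19), Tex15 (1.31 ± 0.19) and Taf7l, a germ cell transcription factor subunit (1.25 ± 0.22), were higher in clone 6. Both member calls in clone 6 were lost without clone 1 replicate 1 or either clone 6 array. Clone 2 is among the clones that clones 1 and 6 are set against.

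Over the 11 arrays of pluripotent lines, some members varied together. Signal of Sycp3 correlated with that of Ddx4 at r = 0.94, of Mael at 0.90 and of Mnd1 at 0.82, and that of Hormad1 with Dazl at 0.78 and Smc1b at 0.75. Mnd1 ran against Hormad1 at -0.56 and against Dazl at -0.54. Other pairs crossed these groupings, with Tdrd12 and Mael at 0.79, Tdrd12 and Sycp3 at 0.62 and Smc1b and Mael at 0.60, while Hormad1 and Mael stood at 0.11 and Smc1b and Mnd1 at -0.01. The arrays share lines in pairs and differ in spread, so these values describe the arrays and carry no test. By the same measure the genes most like each member were Paxbp1 (0.98) and Suz12 (0.97) for Sycp3, Usp26 (0.92) and Fmr1nb (0.91) for Smc1b, Mcf2 (0.94) and Traip (0.93) for Hormad1, and 2810408A11Rik (0.99) and Tex15 (0.96) for Ddx4. They were Klhl2 (0.97) and Ago3 (0.94) for Mnd1, Mtf2 (0.98) and 4933434E20Rik (0.96) for Tdrd12, Rufy3 (0.97) and Zgrf1 (0.96) for Mael, and Hpgd (0.91) and Nckap1l (0.89) for Dazl.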

How the data were processed

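The authors deposited log2 signal made with Affymetrix Expression Console and RMA, per the submitters' processing notes; versions and genome build are not given in the sources used here. Scanner files and detection calls were not used here, so no value can be set against background. Of 23238 rows, 6577 with low row numbers and no annotated gene were left out as controls, a set identified once the table had been seen. limma 3.58.1 (R 4.3.3; lmFit, eBayes) was fitted to the other 16661 rows with 1 mean per line over all 13 arrays, with 6 residual and 4.53 prior degrees of freedom. A self-test on simulated data preceded the fit. Clones were weighted equally. The precision is limited by 2 arrays per line. Members and lists were chosen with earlier results of these data known. Named were all members, up to 4 further called genes of each list in the comparison described by size (beyond that, the rest of a short list of calls were named after their values were seen), the 2 rows most like each member over 11 arrays, and Gusb. Promoters come from RefSeq. Alternatives were 12 fits without 1 array, a replicate block, other normalizations, a filter on dim rows, another variance prior, compared lines alone, line means as samples and leaving out clone 2. Replicate numbers marked no pairing shared by all lines.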

Additional observations from a re-analysis of the deposited data

Results flagged for a closer look

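Effects against the same MEF arrays differed between clones for 5 genes, by the F test among clones. The highest and lowest clone means were 3.30 log2 units apart for Mnd1 (clone 1 and clone 2), 3.23 for Sycp3 (clone 6 and clone 2), 2.18 for Ddx4 (clone 6 and clone 2), 1.89 for Dazl (clone 2 and clone 1) and 1.44 for Mael (clone 1 and clone 2). Mnd1 lost its F call with the replicate block (adjusted p = 0.0530), quantile (0.103) and intensity-dependent scaling (0.101, limma), and Sycp3, Ddx4, Mnd1 and Mael lost it without clone 2. The ES lines differed from each other for 3 genes: MPSVII ES lay above B6 Blu ES by 2.89 for Smc1b, 2.25 for Sycp3 and 1.87 for Ddx4. That Sycp3 call was lost with intensity-dependent scaling (adjusted p = 0.0652, limma). No line has the 4 or more arrays that a test for a single deviating array needs.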

How the results depend on the processing

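Called results of single genes numbered 75, of which 5 were F tests among clones. The call was kept by 54 in all 12 fits that left out 1 array and by 59 under every other setting. Of the called differences 0 changed sign, and an F test has no sign. Counts of the 8 genes called ran, over the 12 fits, from 0 to 2 for the clones minus MPSVII ES, 0 to 3 for MPSVII ES minus B6 Blu ES, 0 to 1 for clone 1 and for clone 5 minus MPSVII ES, 2 to 4 for clone 2 minus MPSVII ES, 0 to 1 for clone 1 and 0 to 2 for clone 6 minus the other clones, and 3 to 5 among clones. In the clones minus MEF line means as samples gave 3. In the clones minus MPSVII ES the replicate block, median centring, intensity-dependent normalization, the trended and robust prior, the compared lines alone and leaving out clone 2 gave 1 each, and line means 0. In MPSVII ES minus B6 Blu ES quantile normalization and the filter on dim rows gave 5 each. In clone 1 minus MPSVII ES the replicate block gave 0, and quantile normalization, median centring, intensity-dependent normalization and the trended prior 1 each. Among clones, leaving out clone 2 gave 1.

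Differences that changed sign were all uncalled. Without clone 2, the clones minus MPSVII ES gave 0.39 for Mnd1, 0.0211 for Mael and -0.20 for Dazl. MPSVII ES minus B6 Blu ES gave -0.21 (quantile) and -0.19 (intensity-dependent) for Mnd1, and clone 2 minus MPSVII ES 0.0678 (intensity-dependent) for Tdrd12. Leaving out 1 array moved the clones minus MPSVII ES between -0.16 and 0.26 for Smc1b, -0.94 and 0.29 for Mnd1, -0.0284 and 0.31 for Tdrd12 and -0.0149 and 0.14 for Dazl. It moved B6 Blu ES minus MEF between -0.0063 and 0.17 for Sycp3, MPSVII ES minus B6 Blu ES between -0.54 and 0.68 for Mnd1, clone 2 minus MEF between -0.72 and 1.59 for Mnd1, and Smc1b in clone 2 between -0.14 and 0.29 against MPSVII ES and -0.18 and 0.25 against the other clones. The cause was not tested.

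In the order quantile, median and intensity-dependent scaling, rows called over the whole table went from 173 to 455, 309 and 412 in the clones minus MPSVII ES, from 34 to 186, 87 and 110 in MPSVII ES minus B6 Blu ES, from 180 to 397, 382 and 477 in clone 1, from 296 to 745, 480 and 698 in clone 5 and from 8 to 112, 46 and 104 in clone 6 minus MPSVII ES, and from 61 to 367, 188 and 347 in clone 5 minus the other clones. Intensity-dependent scaling gave 457 against 983 in clone 2 minus MPSVII ES and 978 against 1923 in clone 2 minus the other clones, and median centring 287 against 97 in clone 1 minus the other clones. The replicate block gave 114 in the clones, 114 in clone 1, 161 in clone 5 and 2 in clone 6 minus MPSVII ES, and 22, 31 and 122 (main 196) in clones 1, 5 and 6 minus the other clones. Without dim rows 62 were called in MPSVII ES minus B6 Blu ES, 23 in clone 6 minus MPSVII ES and 254 in clone 1 minus the other clones. Line means gave 3060 against 5803 in the clones minus MEF and 2 in the clones minus MPSVII ES, and leaving out clone 2 gave 134 against 1501 among clones. Fits without 1 array fell to 6 in the clones minus MPSVII ES and in MPSVII ES minus B6 Blu ES, and to 487 among clones. The share of calls higher went, in the same order, from 22.4% to 51.7%, 49.0% and 42.5% in the clones minus MEF, from 25.1% to 49.1%, 41.6% and 39.3% in MPSVII ES minus MEF, from 15.5% to 47.8%, 29.2% and 34.6% in B6 Blu ES minus MEF, from 14.6% to 51.2%, 39.8% and 41.3% in clone 2 minus MEF, and from 30.6% to 42.2%, 39.2% and 45.9% in the clones minus MPSVII ES. The median over all rows of the clones minus MEF moved from -0.09 to 0.11, 0.17 and 0.06. The replicate block was fitted without B6 Blu ES. Apart from that fit, replicate-1 deviations of 15 pairs of lines correlated between -0.24 and 0.24, with 4 over 0.1. The numbers thus mark no pairing shared by all lines, and a pairing of some lines was not tested. The block left 8 genes called in the clones minus MEF. Another row of the same gene was not run, since each gene has 1, nor another background correction, which needs scanner files.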
